A study of Mus musculus with 6 samples.

Results

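Frizzleds are receptors of the cell surface that bind Wnt proteins, and the 10 genes described here are 6 of them (Fzd1, Fzd2, Fzd3, Fzd4, Fzd6 and Fzd7) with Vangl2, Celsr1, Sfrp1 and Lrp6, which act beside them. They were taken by symbol from a table of 41449 rows, in which each of the 10 had 1 row. The lenses came from mice aged 2 months. The 3 wild-type libraries (WT) were from strain C57BL/6, and the 3 libraries of the fibronectin conditional knockout (FNcKO) were from mice labelled as a mixed background of C57BL/6, 129 and FVB/N. Each library was made from the total RNA of 2 lenses. The labels do not name the Cre driver, and the strain background differs wherever the genotype does, so the effects of genotype and background cannot be told apart. The series asks what fibronectin, a matrix protein that cells bind through integrins, does in the lens after birth.

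Wnt signalling branches at the Frizzled. In the beta-catenin branch a Frizzled and the co-receptor Lrp6 together stabilise beta-catenin, while secreted proteins such as Sfrp1 bind Wnts or Frizzleds outside the cell and restrain signalling. In the planar polarity branch Frizzleds (Fzd3 and Fzd6 above all in mammals), Vangl2 and the atypical cadherin Celsr1 settle on cell borders and align neighbouring cells within a sheet. In the lens, planar polarity genes are known for aligning the ordered rows of elongated fiber cells, and Lrp6 for maintaining the epithelium that covers the front of the lens.

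Among the 10 genes, FNcKO lenses had less Fzd6 RNA, and the other 9 did not pass the test. Levels are FPKM, that is, fragments scaled to transcript length and library size, which allow genes to be compared per length. Genotypes were compared on log2(FPKM + 1) with limma, a linear model that shares information on spread across genes, with Benjamini-Hochberg adjustment over the 10149 genes that averaged 1 FPKM or more. A call means an adjusted p under 0.05. Of the 10 genes, 6 reached 1 FPKM and 4 did not (Fzd2, Fzd4, Fzd7 and Vangl2). In this test 1 of the 6 was lower in FNcKO and 0 were higher. Across all genes tested, 1.03% were called lower and 0.857% higher, 1.89% in all.

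**Figure D1:**
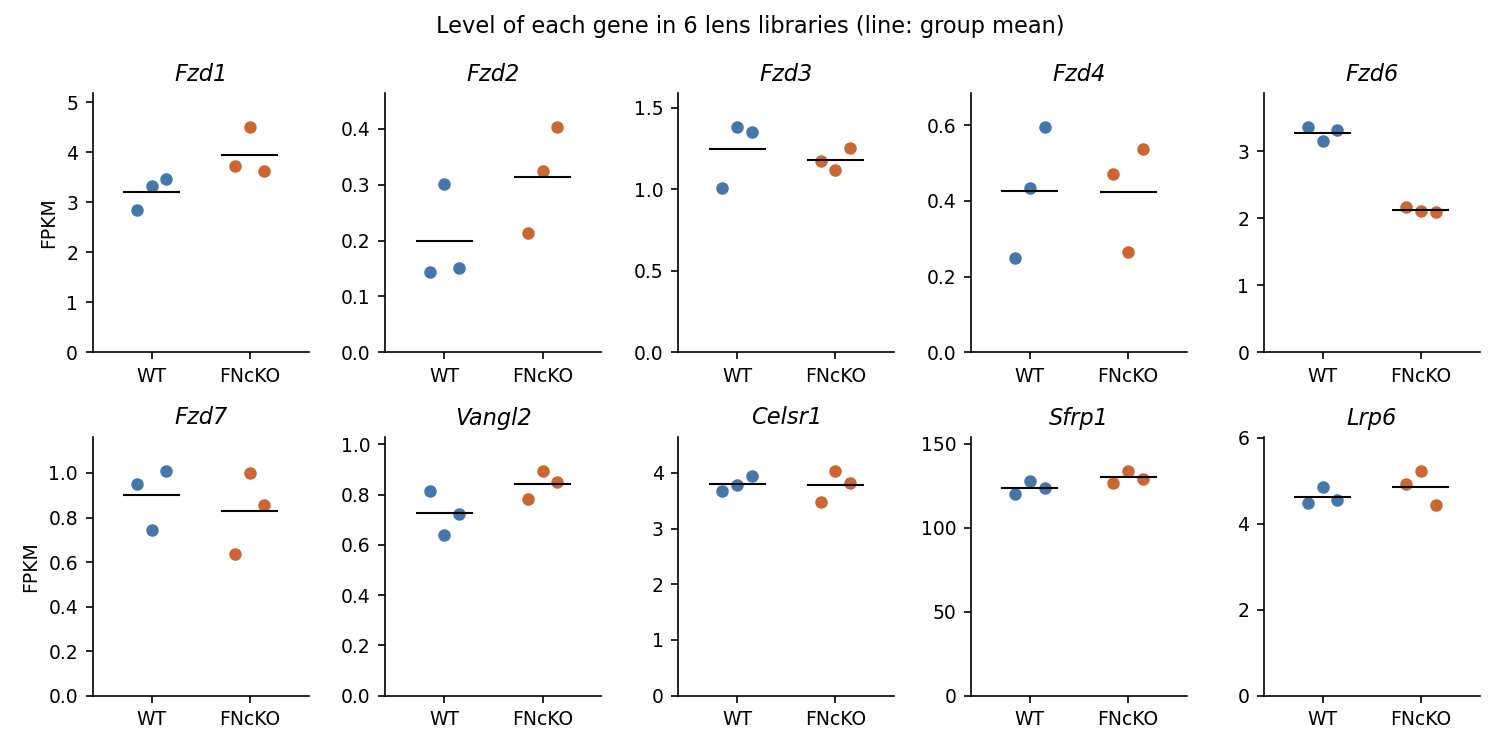
FPKM of each of the 10 genes (vertical axes, linear and starting at 0) in the 3 WT and 3 FNcKO libraries, with each point 1 library and the line the group mean. The Fzd6 values lie between 3.16 and 3.36 FPKM in WT and between 2.1 and 2.17 FPKM in FNcKO, while the groups overlap for the other genes except Fzd1.

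The libraries bear on these values as follows. Low values of single-exon genes lay mostly near multiples of what 1 fragment would be worth, and a search for the best match put the depth of the WT libraries at 26350000 to 31800000 fragments and that of the FNcKO libraries at 19800000 to 21700000. WT replicate 2 has no value in 3578 rows, and none of the 10 genes is among them. The targeted gene Fn1 stood at 0.135, 0.188 and 0.253 FPKM in WT and at 0.128, 0.0482 and 0.0942 FPKM in FNcKO, values for the gene as a whole, from which the state of its deleted part cannot be read. The labelled tissue matched its markers: Crybb2 and Cryaa, crystallins of the fiber cell, averaged 96926.4 and 39127.5 FPKM in WT, and Cd24a and Igfbp7 of the epithelium 837.9 and 468.4 FPKM. Nothing in the labels says more about the source of the replicates than that they are biological. The p-values set the difference between the 2 groups against the spread of these libraries within each group.

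By level the 10 genes spanned a wide range. Sfrp1 was far above the others, at 123.7 ± 3.79 FPKM in WT (SD, n = 3), and its mean over all libraries was above that of 98.7% of the rows with any value above 0. Lrp6 followed at 4.63 ± 0.207 FPKM in WT and Celsr1 at 3.8 ± 0.135 FPKM (SD, n = 3 each), and their values did not overlap. Next came Fzd6 at 3.28 ± 0.103 and Fzd1 at 3.21 ± 0.322 FPKM in WT (SD, n = 3 each), which did not differ beyond their spread. Fzd3 (1.25 FPKM), Fzd7 (0.903 FPKM) and Vangl2 (0.726 FPKM) formed a lower group in which neighbours in the order overlapped, and Fzd4 (0.426 FPKM) and Fzd2 (0.199 FPKM) were the lowest and overlapped each other. In FNcKO the order of the means changed at Fzd1, which stood above Celsr1 and Fzd6 (3.95, 3.77 and 2.12 FPKM). Lrp6, Fzd1 and Celsr1 overlapped in turn, and Fzd6 lay below all 3 and above Fzd3 without overlapping either side. Vangl2 and Fzd7 also changed places (0.842 and 0.831 FPKM), with overlapping values.

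Fzd6, a Frizzled of the planar polarity branch (chromosome 15, 39005669 to 39038194, GRCm38), was measured at 3.36, 3.16 and 3.32 FPKM in WT replicates 1 to 3. In FNcKO replicates 1 to 3 it was 2.17, 2.11 and 2.1 FPKM. All 3 WT libraries were above all 3 FNcKO libraries, and the gap between the groups was wider than the range within either. The FNcKO mean, 2.12 ± 0.0375 FPKM (SD, n = 3), was 0.647 times the WT mean of 3.28 ± 0.103 FPKM (SD, n = 3). The log2 change was -0.45 (SE 0.058, 95% interval -0.6 to -0.31, limma adjusted p = 0.0275). Groups that did not overlap, with FNcKO lower, were found in 16.3% of all genes tested, and groups that did not overlap in either direction in 25.6%. By exact permutation of the libraries (two-sided) p was 0.1, and 3 against 3 cannot give a smaller one. Because whole lenses were measured, fewer cells that express Fzd6 and less Fzd6 RNA per cell cannot be told apart.

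In fragments, the Fzd6 values correspond to about 441, 371 and 361 in WT and 194, 185 and 171 in FNcKO, taking its longest annotated coding transcript (4325 bases, GENCODE) and the estimated depths. These approximate numbers include the lower depth of the FNcKO libraries. The Fzd6 row overlaps the rows of 2 non-coding genes. Gm26704 was at 0.244, 0 and 0 FPKM in WT and 0.362, 0 and 0 FPKM in FNcKO, and Gm41310 at 0, 2.05 and 1.1 FPKM in WT and 0, 1.38 and 1.47 FPKM in FNcKO. Neither row separated the genotypes, and since the use of strand in counting is not given in the sources used here, fragments of Fzd6 and of these genes cannot be told apart where they overlap. Of the words of 50 bases in the longest Fzd6 transcript, 2.41% occurred in a transcript of another gene, in each case Gm26704. No transcript of the 10 genes shared such a word with another of the 10.

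The Fzd6 call was a close one. With any single library left out, limma's adjusted p lay between 0.0727 and 0.135, while the log2 change stayed between -0.47 and -0.44. Scaling every library to the same FPKM total shifted the median change over the genes tested from -0.04 to 0.15, and leaving crystallins out of that total moved it to 0.29. The log2 change of Fzd6 was then -0.27 and -0.14, and its adjusted p 0.293 and 0.476. Taken relative to the median of all genes, it was -0.41 as deposited and -0.42, -0.43, -0.42 and -0.43 under the same total, the same total without crystallins, median-ratio scaling and quantile normalization. Scaling shifts Fzd6 and the median nearly alike, so this near constancy is built into the arithmetic and does not bear on the call.

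**Figure D2:**
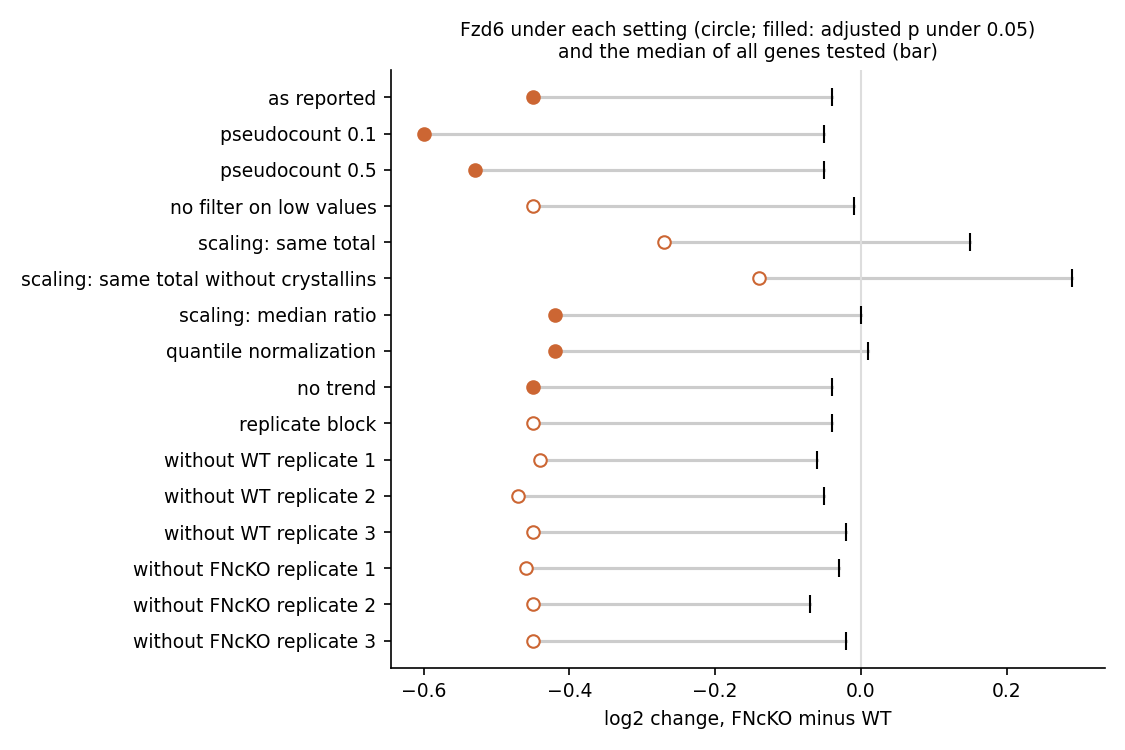
Log2 change of Fzd6 (circles, filled where limma's adjusted p is under 0.05) and the median log2 change of all genes tested (bars) under each setting, on log2(FPKM + 1) except where another pseudocount is named. Fzd6 lies left of 0 and left of the median in every setting shown, and the circle is open wherever 1 library is left out.

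A share within a library does not move with the scaling between libraries. Of the summed FPKM of the 6 Frizzleds, Fzd6 made up 39.3%, 33.8% and 33.6% in WT replicates 1 to 3 and 25.9%, 22.6% and 23.9% in FNcKO replicates 1 to 3. Fzd1 made up 33.3%, 35.6% and 35% in WT and 44.4%, 48.3% and 41.4% in FNcKO. Fzd6 thus took a smaller share, and Fzd1 a larger one, in every FNcKO library than in any WT library. The shares add to 100% within a library, so a smaller share of one receptor means a larger sum of the others, and here most of the difference lay in Fzd1. Fzd3 made up 13.4% ± 1.49 in WT and 13.4% ± 1.21 in FNcKO, and Fzd7 9.77% ± 1.61 and 9.36% ± 1.63 (SD, n = 3 each). The ratio of Fzd6 to Fzd1 was 1.18, 0.951 and 0.96 in WT and 0.582, 0.469 and 0.577 in FNcKO. Since Fzd6 was known to be lower when these shares were chosen, they carry no test.

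**Figure D3:**
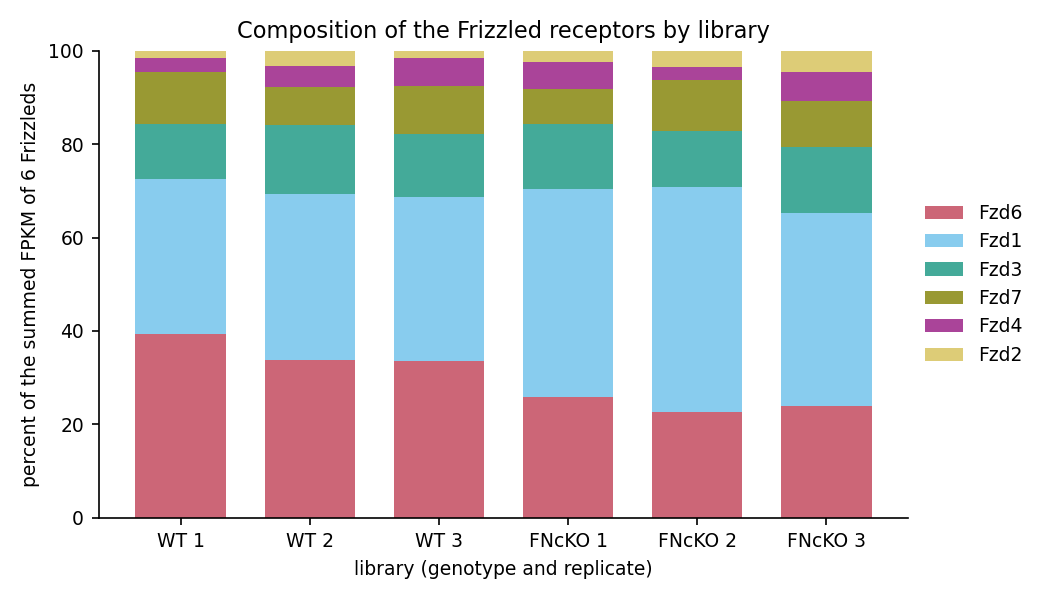
Share of each of the 6 Frizzleds in their summed FPKM (vertical axis, percent) in each library, 1 stacked bar a library. The Fzd6 segment at the bottom falls between 33.6% and 39.3% in WT and between 22.6% and 25.9% in FNcKO, and the Fzd1 segment above it is larger in the FNcKO bars.

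The summed level of the 6 Frizzleds was close in the 2 genotypes as deposited. It was 8.56, 9.35 and 9.88 FPKM in WT and 8.38, 9.32 and 8.77 FPKM in FNcKO, and the groups overlapped.

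Fzd1, a Frizzled that can signal to beta-catenin (chromosome 5, 4753839 to 4758216), was at 2.85, 3.33 and 3.46 FPKM in WT and at 3.72, 4.5 and 3.63 FPKM in FNcKO. Every FNcKO value was above every WT value, a pattern found in 9.31% of all genes tested. FNcKO replicate 2 was the highest and WT replicate 1 the lowest. The means were 3.21 ± 0.322 and 3.95 ± 0.475 FPKM (SD, n = 3 each), and the log2 change of 0.23 (SE 0.098, 95% interval -0.01 to 0.47) missed the threshold (limma adjusted p = 0.285). Under the 4 other scalings it was between 0.27 and 0.57, with adjusted p from 0.135 to 0.284.

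Fzd3, the closest relative of Fzd6 in function and its partner in the planar polarity branch (chromosome 14, 65192441 to 65262463), stood at 1.01, 1.38 and 1.35 FPKM in WT and 1.17, 1.12 and 1.25 FPKM in FNcKO. All FNcKO values lay inside the WT range. The log2 change was -0.04 (95% interval -0.28 to 0.2, limma adjusted p = 0.878). Its sign changed with the scaling, from -0.01 with median-ratio scaling to 0.2 with the same total without crystallins.

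The other 3 Frizzleds lay below 1 FPKM, and their log2 changes come from a limma fit without the filter, in which 0.366% of 27623 genes were called. Fzd7 (chromosome 1, 59482147 to 59486955), a receptor for both branches, was at 0.949, 0.746 and 1.01 FPKM in WT and 0.635, 1 and 0.855 FPKM in FNcKO. Fzd4 (chromosome 7, 89404366 to 89410110), known as the receptor of norrin in retinal vessels, was at 0.248, 0.434 and 0.595 FPKM in WT and 0.472, 0.265 and 0.537 FPKM in FNcKO. Fzd2 (chromosome 11, 102604431 to 102608058), related to Fzd1 and Fzd7, was at 0.144, 0.301 and 0.151 FPKM in WT and 0.213, 0.324 and 0.403 FPKM in FNcKO. For all 3 receptors the groups overlapped. Their log2 changes were -0.06, 0 and 0.13, with 95% intervals of -0.34 to 0.22, -0.3 to 0.31 and -0.07 to 0.33 and limma adjusted p of 0.859, 0.996 and 0.643. At these levels a log2(FPKM + 1) change understates the ratio of the means, which for Fzd2 was 1.58. The Fzd2 values rest on about 13.8 to 29.7 fragments a library. The sign of Fzd7 changed with the scaling, between -0.04 and 0.15.

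**Figure D4:**
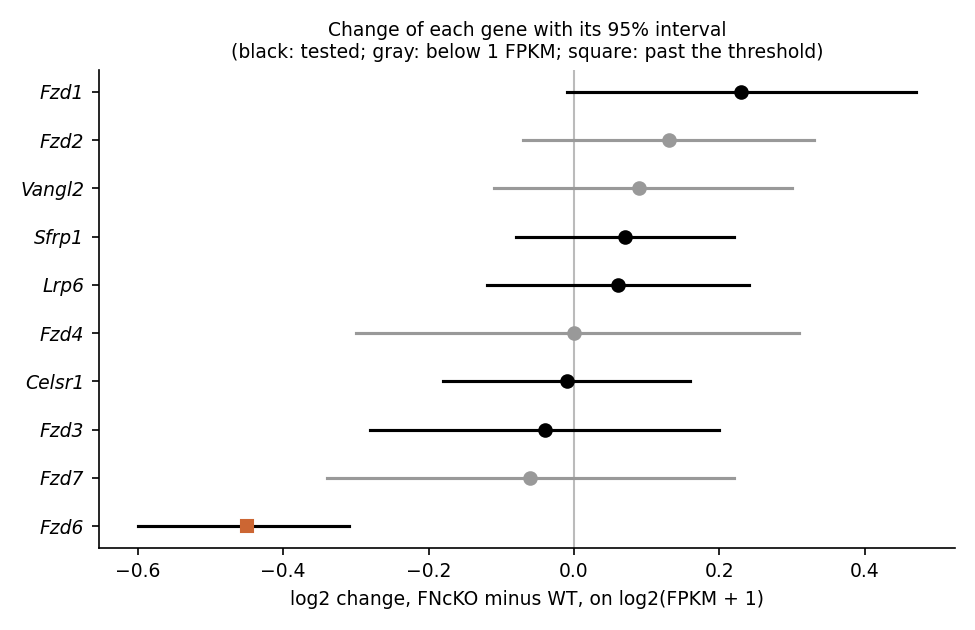
Log2 change of each of the 10 genes, FNcKO minus WT, on the log2(FPKM + 1) scale, with its 95% interval from limma (black for genes tested, gray for genes below 1 FPKM fitted without the filter). The Fzd6 interval, -0.6 to -0.31, is the only one that excludes 0.

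Vangl2 and Celsr1, core planar polarity genes whose proteins act with the Frizzleds, had RNA levels that did not separate the genotypes. Vangl2, a membrane protein placed on the cell border opposite the Frizzled (chromosome 1, 172000960 to 172027314), was at 0.814, 0.641 and 0.724 FPKM in WT and 0.781, 0.895 and 0.851 FPKM in FNcKO. Only FNcKO replicate 1 fell inside the WT range, and the log2 change was 0.09 (95% interval -0.11 to 0.3, limma adjusted p = 0.708 without the filter). Celsr1, the cadherin that bridges neighbouring cells (chromosome 15, 85898758 to 86034217), was at 3.68, 3.78 and 3.95 FPKM in WT and 3.47, 4.04 and 3.82 FPKM in FNcKO. Its FNcKO values lay on both sides of the WT values, with a log2 change of -0.01 (95% interval -0.18 to 0.16, limma adjusted p = 0.955). That sign turned under all 4 other scalings, which gave 0.02 to 0.33.

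Sfrp1, the secreted antagonist (chromosome 8, 23411382 to 23449632), was at 119.8, 127.4 and 123.8 FPKM in WT and 126.8, 133.8 and 128.9 FPKM in FNcKO. The groups overlapped in a narrow range, since FNcKO replicate 1 was below WT replicate 2. The log2 change was 0.07 (95% interval -0.08 to 0.22, limma adjusted p = 0.606). Lrp6, the co-receptor of the beta-catenin branch (chromosome 6, 134446476 to 134567018), was at 4.47, 4.86 and 4.55 FPKM in WT and 4.92, 5.23 and 4.44 FPKM in FNcKO. FNcKO held both the highest and the lowest value, and the log2 change was 0.06 (95% interval -0.12 to 0.24, limma adjusted p = 0.728). For both genes the interval leaves out a change as large as that of Fzd6, on values as deposited.

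The rest of the pathway was described from fixed lists, counted in the same limma fit. Over all genes tested 1.89% were called, so lists this short would give few calls or none at that share. Among the 16 other core planar polarity genes, 10 were tested and 0 were called, with 1 at an unadjusted p under 0.05, where 18.1% of all genes tested were. Their median log2 change was 0.02, beside -0.04 for all genes. Groups did not overlap for 2 of the 10, Prickle1 and Vangl1. Both were higher in FNcKO, a pattern found in 9.31% of all genes tested. Prickle1, a cytoplasmic partner of Vangl2, had the smallest p, at 13.2 ± 0.699 and 15 ± 0.793 FPKM (WT and FNcKO, mean ± SD, n = 3 each; limma adjusted p = 0.272). Vangl1, the paralog of Vangl2, was at 1.53, 1.43 and 1.39 FPKM in WT and 2.22, 2.13 and 1.55 FPKM in FNcKO. Its groups did not overlap, although FNcKO replicate 3 was close to WT, and it missed the threshold (log2 change 0.27, limma adjusted p = 0.276).

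Of 16 planar polarity effectors, 13 were tested and 0 called by limma, with 2 at an unadjusted p under 0.05 and a median log2 change of -0.11. The 2 were Wdpcp, which takes part in cilia and planar polarity, at 1.7 ± 0.173 and 1.21 ± 0.0945 FPKM, and Cdc42, a small GTPase of the actin cytoskeleton, at 15.5 ± 1.69 and 12.4 ± 1.42 FPKM (WT and FNcKO, mean ± SD, n = 3 each; limma adjusted p = 0.178 and 0.236). Of the 5 other receptors of the Frizzled class only Smo, the Hedgehog signal transducer, reached 1 FPKM, at 5.93 ± 0.172 and 5.29 ± 0.317 FPKM (SD, n = 3 each; limma adjusted p = 0.307).

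Ligands and antagonists gave 0 calls, beside 1.89% called and 18.1% at an unadjusted p under 0.05 over all genes tested in limma. Of 22 genes for Wnts, norrin and Wnt secretion, 7 were tested, with 0 called and 0 at an unadjusted p under 0.05 in limma, and 5 were listed at 0 in all libraries with a value. Wls, which carries Wnts to the surface, was at 18.7 ± 0.697 and 16.6 ± 1.12 FPKM, and Wnt9a at 1.21 ± 0.0461 and 0.902 ± 0.187 FPKM (WT and FNcKO, mean ± SD, n = 3 each). The most abundant ligand, Wnt7b, named after its value was seen, was at 43.9 ± 2.69 and 41.9 ± 2.13 FPKM (SD, n = 3 each), well above any Frizzled. Of 15 other antagonists 2 were tested, with 0 called and 0 at an unadjusted p under 0.05 in limma. Dkk3, a relative of the Dickkopf inhibitors, was at 169.6 ± 3.19 and 183.5 ± 8.72 FPKM (SD, n = 3 each), higher than Sfrp1, and Kremen1, a Dickkopf receptor, at 1.12 ± 0.404 and 1.27 ± 0.309 FPKM (SD, n = 3 each). Sfrp2, Sfrp4 and Sfrp5, the relatives of Sfrp1, had means of 0.0235, 0 and 0.0256 FPKM in WT and were listed at 0 in all 3 FNcKO libraries.

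On the side of beta-catenin, limma likewise called 0 genes, beside the same shares of 1.89% and 18.1% over all genes tested. Of 14 genes for other co-receptors and receptor turnover, 5 were tested and 0 had an unadjusted p under 0.05. They include Znrf3, a ligase that removes Frizzleds from the membrane, at 1.25 ± 0.204 and 1.03 ± 0.0181 FPKM, and Lrp4, a relative of Lrp6, at 2.5 ± 0.261 and 2.26 ± 0.309 FPKM (WT and FNcKO, mean ± SD, n = 3 each). Of 18 genes that act inside the cell, 14 were tested and 0 had an unadjusted p under 0.05. The casein kinases Csnk1e and Csnk1d had the smallest p, with log2 changes of 0.16 and -0.16 and limma adjusted p of 0.3 and 0.371. Of 12 genes known to rise with beta-catenin signalling, 3 were tested and 0 had an unadjusted p under 0.05. One of them, Axin2, a feedback inhibitor, was at 1.67, 1.39 and 1.33 FPKM in WT and 1.61, 1.92 and 1.76 FPKM in FNcKO. In FNcKO 1 library lay inside the WT range (log2 change 0.16, limma adjusted p = 0.407). The 9 below 1 FPKM were named after their values were seen. Notum (0.0936 and 0.261 FPKM) and Nkd2 (0.0367 and 0.152 FPKM) were higher in FNcKO without overlap (limma adjusted p = 0.393 and 0.556 without the filter). With overlapping groups, Tcf7, Rnf43, Myc and Lef1 had higher means in FNcKO, and Nkd1 and Lgr5 lower means. Sp5 was listed at 0.

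**Figure D5:**
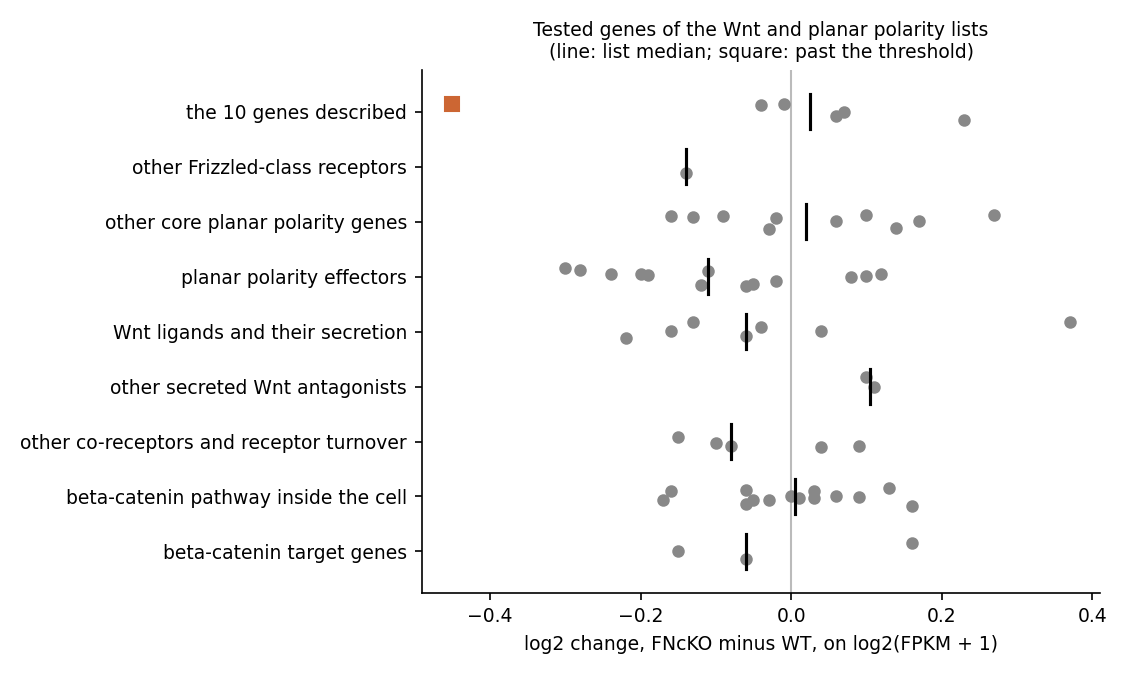
Log2 change of every tested gene (points), FNcKO minus WT on log2(FPKM + 1), in the 10 genes described and 8 further lists, with the list median as a line. The square is Fzd6 at -0.45, the only gene past the threshold in these lists.

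Some genes listed as markers of cells beside the lens differed between the genotypes in the same libraries. Whole-lens libraries do not show which cells the RNA of a listed gene came from, lens cells included. Over all genes tested, limma called 1.89%, and 18.1% had an unadjusted p under 0.05. Groups did not overlap in 25.6%, with FNcKO lower in 16.3% and higher in 9.31%. Of 10 pigment cell markers 2 were tested and 0 called by limma, with 2 at an unadjusted p under 0.05. The summed level of that list was 12.5 to 20.7 FPKM in WT and 7.32 to 9.07 FPKM in FNcKO, led by Ttr (8.85 and 3.68 FPKM) and Oca2. The 8 below 1 FPKM, named after their values were seen, went both ways. Without overlap, Mlana was lower in FNcKO (0.387 and 0 FPKM) and Slc45a2 higher (0 and 0.0449 FPKM). With overlapping groups, Tyr (0.21 and 0.226 FPKM) and Tyrp1 (0.533 and 0.712 FPKM) had higher means in FNcKO, and Dct, Pmel, Rpe65 and Rlbp1 lower means. All 8 ciliary body and iris markers were tested and 1, Aqp1, was called higher, with 3 at an unadjusted p under 0.05. The groups did not overlap for 2 that were higher and 2 that were lower. The lower ones, named after their values were seen, were Msx1 (1.43 and 0.601 FPKM in WT and FNcKO, limma adjusted p = 0.0501) and Aqp4. The sum of the list, over genes with a value in every library, was 50.1 to 59.8 FPKM in WT and 79.5 to 99.9 FPKM in FNcKO, led by Optc (18.3 and 42.9 FPKM) with Tgfb2 (14.2 and 14.8 FPKM). Of 11 photoreceptor markers 8 were tested and 1, Gnat1, was called lower. Its call rests on 2 WT libraries, since WT replicate 2 has no Gnat1 value. That library was the lowest of the WT libraries for Sag (6.07 against 14.7 and 18.6 FPKM) and Pde6a (2.25 against 5.21 and 5.18 FPKM). For both of these genes the genotypes overlapped. The sum of the photoreceptor markers with a value in every library, which Gnat1 lacks, ran from 14.6 to 45.5 FPKM in WT and from 23.3 to 25.9 FPKM in FNcKO. Of 7 neuron and glia markers 4 were tested, 3 with a log2 change below 0 and 1 above, and only Map2 was called, lower (5.65 and 1.31 FPKM). Glul was at 9.6 and 11.4 FPKM, and the sum was 17.9 to 23.6 FPKM in WT and 15.2 to 22 FPKM in FNcKO. Snap25 (2.99 and 1.89 FPKM in WT and FNcKO) and Gfap (1.79 and 1.41 FPKM) had lower means in FNcKO with overlapping groups. They and the 3 below 1 FPKM were named after their values were seen, and those 3 went both ways. Tubb3 (0.331 and 0.287 FPKM) and Rbfox3 (0.072 and 0.0597 FPKM) had lower means in FNcKO with overlapping groups. Slc1a3 was higher in FNcKO without overlap (0.731 and 1.22 FPKM). The part of these cells in the Fzd6 result was not tested.

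Markers of other cells were few or low. The corneal list was almost all Aldh3a1, at 28.2 ± 2.54 and 32.7 ± 16.6 FPKM (SD, n = 3 each), with Krt5 next and 2 of 6 markers listed at 0. The endothelial list summed to 1.17 to 1.38 FPKM in WT and 1.35 to 2 FPKM in FNcKO, mostly Egfl7 with little Kdr, and 2 of 6 were at 0. Macrophage and leukocyte markers, led by Lyz2 and Csf1r, summed to 1.43 to 2.75 and 0.601 to 1.75 FPKM, with 0 of 7 tested. The red blood cell list held Bpgm at 7.17 and 7.35 FPKM and Hba-a2 at 0.146 and 0.489 FPKM. Across lens cells themselves, the epithelial list summed to 1413 to 1467.5 FPKM in WT and 1496.4 to 1721.7 FPKM in FNcKO. Most of that difference was in Cd24a (837.9 and 1007.6 FPKM), while Igfbp7 was at 468.4 and 463.2 FPKM. The list had a median log2 change of -0.01 and 6 of 10 tested genes below 0, with 0 called by limma and 1 at an unadjusted p under 0.05. The sum of the fiber list overlapped between genotypes, at 142479.1 to 148966 and 142606.7 to 150562.4 FPKM. Its 2 largest parts moved in opposite directions without overlap: Crybb2 (96926.4 and 90094.8 FPKM) was lower in FNcKO and Cryaa (39127.5 and 45100.1 FPKM) higher. Of the 12 fiber genes, groups did not overlap for 5 higher and 1 lower in FNcKO. Over all genes tested these shares were 9.31% and 16.3%. In limma 0 of the 12 were called and 2 had an unadjusted p under 0.05.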

How the data were processed

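Gene expression was measured by RNA sequencing of whole-lens total RNA in 3 WT and 3 FNcKO libraries, grouped by sample title. The authors deposited FPKM values for the 6 libraries in 1 table. The tools named in the submitters' processing notes are Cuffdiff 2.2.1, TopHat2 2.1.0, cutadapt 1.12 and FastQC, and the builds named are GRCm38.p5 and mm10. How strand and multi-mapped fragments were treated, which annotation was used and whether libraries were scaled to each other is not given in the sources used here. The table counts start positions from 0, as the RefSeq start of Fzd1 shows, and they are given here counted from 1.

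From these values log2(FPKM + 1) was computed for genes averaging 1 FPKM or more, and genotypes were compared with limma (version 3.58.1, R 4.3.3; empirical Bayes with trend, two-sided). Of the genes tested, 742 had no value in WT replicate 2 and were fitted on 5 libraries. One unreadable value was treated as missing. On simulated data from 9407 real genes, changes of 1.5-fold were recovered in 73.1% of genes and changes of 2-fold in 95.5%, and 10 unchanged genes were called. The simulated noise depended on the level of a gene alone. Differences in spread between genes of the same level were not simulated, so these shares may not hold for the real data. Depth was estimated by searching for the depth and fragment length (200 bases in every library) at which values of single-exon genes come closest to whole numbers: 64.8% to 71% lay within 0.15 of one. The search itself raises this share, and these depths enter no test.

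The 10 genes and the lists were chosen with earlier results of these data known, and so are not independent of them. All 10 are named. Each pathway list contributes its calls, at most 4, or the 2 tested genes with the smallest p, and each marker list its 2 most abundant genes, of which 1 photoreceptor gene is not reported here. Alternatives covered the pseudocount, the filter, scaling, the trend, a replicate block and leaving out each library.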

Additional observations from a re-analysis of the deposited data

How the results depend on the processing

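The number of genes called by limma was 192 as reported and fell to 101 without a filter, 89 with equal FPKM totals in all libraries and 86 with that total taken without crystallins. Without one library it ran from 37 (without WT replicate 1) to 117 (without FNcKO replicate 1). The share of calls that were higher in FNcKO was 45.3% as reported, 57.9% with median-ratio scaling, 60.4% after quantile normalization, and 70.8% and 76.7% with the 2 same-total scalings. Among the 10 genes the count of calls, 1 as reported, was 0 without a filter, with a filter of 5 FPKM (which leaves Sfrp1 alone to be tested), with both same-total scalings and without any one library (0 to 0). Of these genes 1 had an unadjusted p under 0.05 without a filter and without any one library, 0 with the filter of 5 FPKM and 2 with each same-total scaling. The unadjusted limma p of Fzd6 was 0.0365 with the same total. It was 0.357 with that total taken without crystallins, so Fzd6 was not among the 2 there. The call of Fzd6 held with pseudocounts of 0.1 and 0.5, median-ratio scaling, quantile normalization and no trend (adjusted p from 0.0244 to 0.0321). Without a filter its adjusted p was 0.0634. The summed FPKM of the 6 Frizzleds, FNcKO minus WT, went from -0.44 to 1.2 and 2.39 with the 2 same-total scalings. The share of Fzd6 in it, FNcKO minus WT, was -11.4 percentage points, and -12.4 to -9.58 without one library.

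The replicate numbers did not pair the libraries: the deviations of same-numbered libraries correlated at -0.03, -0.05 and -0.05 over 9407 genes, and no library correlated best with its own number. With the replicate block 14 genes were called and 0 of the 10, with Fzd6 at adjusted p = 0.174 (unadjusted p = 0.0029, the 1 of the 10 under 0.05).

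Fragment numbers limit the lowest genes, Fzd2 and Fzd4, most. With 3 libraries a group, a miss of the threshold does not show equal levels.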

Other observations

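Genes near Fzd6 and Fzd7 were looked at after the main values were seen. Within 1 Mb of Fzd6 on chromosome 15, 6 other genes were tested. In limma 0 of them were called and 1 had an unadjusted p under 0.05, and their log2 changes ran from -0.23 to 0.27. The nearest, Dcaf13, a protein of ribosome assembly, stood at 2.39, 2.72 and 3.48 FPKM in WT and 1.64, 2.35 and 2.94 FPKM in FNcKO, with overlapping groups (limma adjusted p = 0.557). Lrp12, a lipoprotein receptor relative, had the largest change, at 5.84 FPKM in WT and 7.26 FPKM in FNcKO (limma adjusted p = 0.167). On chromosome 1, Fzd7 lies 12.1 Mb from the targeted gene Fn1, and its log2 change was -0.06 with overlapping groups.

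Fzd5 and Fzd8, Frizzleds known from eye development, were below 1 FPKM in both genotypes. Fzd5 was at 0.466, 0.177 and 0.479 FPKM in WT and 0.886, 0.462 and 0.626 FPKM in FNcKO, and Fzd8 at 0.215, 0.197 and 0.283 FPKM in WT and 0.552, 0.412 and 0.219 FPKM in FNcKO. The groups overlapped for both, and limma without the filter gave adjusted p of 0.558 and 0.604.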
